A study of Mus musculus with 4 samples.

Results

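The genes described here handle calcium in the heart muscle cell and couple electrical excitation to contraction. They were measured in ventricular muscle of male 129SV mice, where 2 wild-type samples stood against 2 samples lacking Trpc6 through genetic deletion (Trpc6-/-), each read on 1 array. The members were 37 gene symbols of this function, matched to the probe annotation of the platform, and the matching used no measured value. Of these, 35 had at least 1 named probe, with 43 probes in all, and Itpr1 and Sln had none and were not analysed here. Probes were kept when their spot median lay above the 95th percentile of blank and negative control spots on at least 2 arrays. This kept 39 of the 43 probes and 33 of the 37 genes, among 15955 genes tested over the whole array. Age, and whether the numbered samples of a genotype came from separate animals, are not stated in the labels, and the p-values then reflect only the spread among these samples, technical or not. The deletion is described as genetic, with no allele or targeted exon named.

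In each heartbeat the L-type calcium channel of the T-tubule admits a small amount of calcium, which opens ryanodine receptors of the facing sarcoplasmic reticulum and releases the larger store that activates the sarcomere. Relaxation follows as the SERCA pump, held back by phospholamban, returns calcium to the store and the sodium-calcium exchanger carries the rest out of the cell. Trpc6 encodes a calcium-permeable cation channel of the plasma membrane opened downstream of receptors, and the comparison asks how ventricles without it differ at the transcript level.

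The median probe intensity was 95.5 to 106 units on the 4 arrays, and the background threshold was 80.8 to 91.5 units, so the typical probe lay close above background. The Trpc6 probe, at 80.5 and 89.2 units in wild type against 84.1 and 82.6 units in the knockout, was above background on no array, and so it could not check the genotype labels. The 10 ventricular cardiomyocyte markers were above background on all 4 arrays, with summed intensities over blank of 252974 and 293365 units in wild type and 262738 and 241773 units in the knockout. Of 10 fast skeletal muscle markers with a probe, Tnni2, Mylpf, Myl1 and Pvalb were above background on all 4 arrays, while the fast myosin heavy chains Myh1, Myh2 and Myh4 were on none, and the list summed to 355 and 190 units in wild type and 228 and 246 units in the knockout. Of 5 conduction system markers with a probe, Cntn2 and Irx3 were above background on all 4 arrays, Gja5 and Shox2 on 1 array each, and Hcn4 on none. Sums of the other lists that did not overlap between the genotypes were lower in the knockout for 6 fibroblast markers (3885 and 4042 against 3218 and 2636 units), 7 endothelial markers (1209 and 1320 against 1010 and 1087 units), 8 leukocyte markers (345 and 383 against 253 and 225 units) and 5 neuronal and Schwann cell markers (95 and 97 against 81 and 91 units). They were higher for 7 atrial markers (3425 and 3647 against 4248 and 6073 units) and 5 red blood cell markers (947 and 3020 against 3344 and 3376 units). Most of the atrial sum was Nppa, which read 3280 and 3420 against 4130 and 5950 units before blank subtraction. By normalized difference 4 of the 7 atrial markers were higher and 3 lower. Most of the fibroblast sum was Dcn, which read 2840 and 3180 against 2380 and 1770 units before blank subtraction. By normalized difference 2 of the 6 fibroblast markers were higher and 4 lower. Dcn alone among them had groups without overlap, which is 16.7% against 36.8% of all genes. The list sums are not normalized. The 5 neuronal and Schwann cell markers read only 80.7 to 121 units before blank subtraction, near the background thresholds, and Th was above background on 1 array. The lists' mean normalized log2 values overlapped for fibroblast, atrial and neuronal markers but not for endothelial, leukocyte and red blood cell markers. Of the 8 leukocyte markers 4 were higher and 4 lower. Among them Ly6g alone had groups without overlap, at 7.81 and 7.99 against 7.35 and 6.94, which is 12.5% against 36.8% of all genes. The part of these lists in the members' differences was not tested. The second wild-type array had the highest blank median, 87.5 units against 78.4 to 82.8, and the lowest share of probes above background, 76.3% against 77.7% to 83.2%. In bulk tissue, fewer cells of a type and less RNA per cell cannot be told apart.

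The members differed little between the genotypes, and none passed the test. Of the 33 tested, 15 were higher and 18 lower in the knockout, with a median log2 difference of -0.015, against 0.0017 over all genes tested, of which 51.1% were higher. The largest difference was 0.23 on the log2 scale, for Casq2. The median absolute difference was larger in the members, 0.091, than over all genes tested, 0.043, but this comparison was not matched for intensity. The typical probe lay close above background, while 16 of the 33 members had a mean intensity over 2.5 times the background threshold. For the 10 ventricular cardiomyocyte markers the median absolute difference was 0.096. The part of intensity in this was not tested. In limma, 0 members had an adjusted p under 0.05, as did 0 of all genes (0%), and the smallest adjusted p over all genes was 0.369. At an unadjusted limma p under 0.05 there were 2 members, Calm3 and Fkbp1a, both higher, which is 6.06% of the members against 6.74% of all genes in either direction. Of all genes 3.67% were higher and 3.08% lower at that threshold, where the members counted 2 and 0. The groups did not overlap in 11 members, 5 higher and 6 lower, which is 33.3% against 36.8% of all genes, of which 19.4% were higher and 17.4% lower. Both shares of the members lay near this background. Values below are normalized log2 intensities in the order of the replicate numbers, and differences are knockout minus wild type ± standard error (n = 2 arrays per group), with the 95% interval of the limma fit where it is given.

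**Figure D1:**
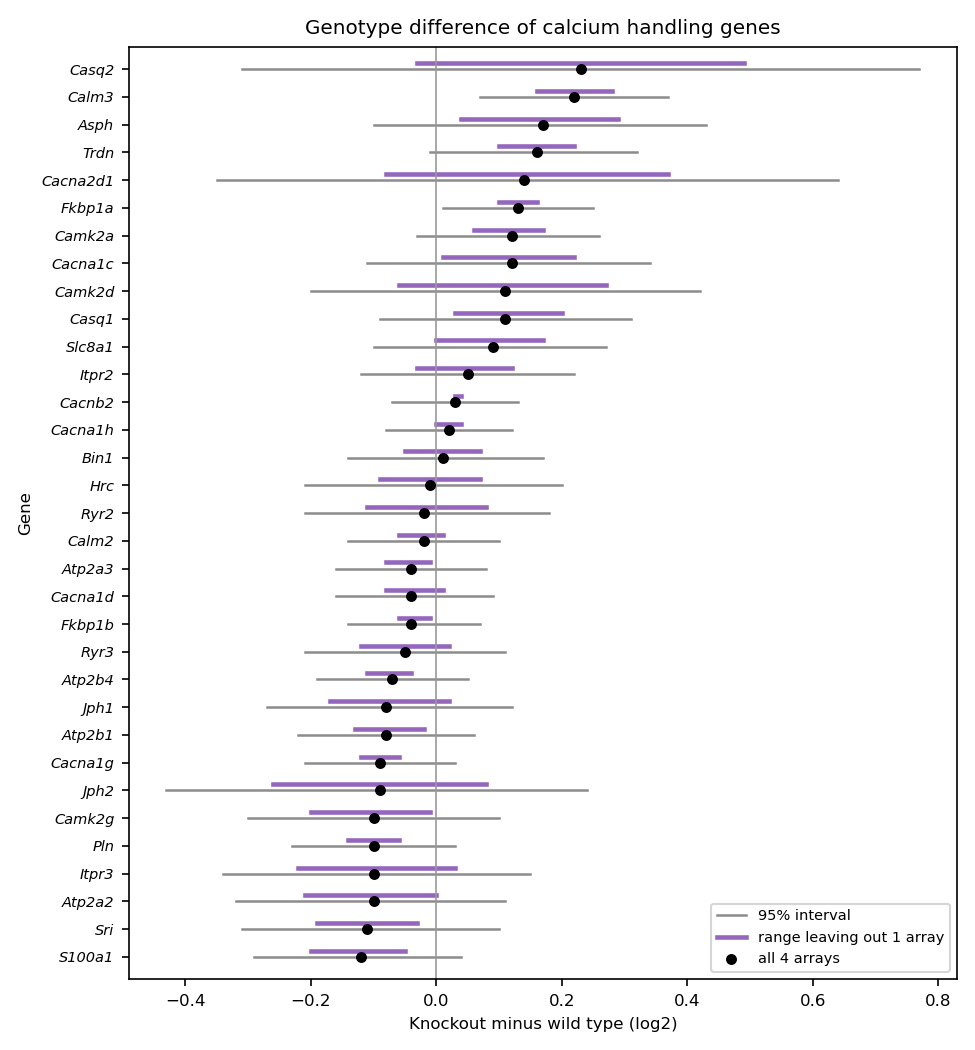
Knockout minus wild-type difference (log2, horizontal axis) of the 33 calcium handling genes tested, sorted by size. Black points are the limma estimate from 4 arrays, grey lines its 95% interval, and purple lines the range when each array is left out in turn; the intervals of Calm3 and Fkbp1a alone do not reach 0, before any adjustment for the number of genes.

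The release channels open the store. Ryr2, the ryanodine receptor of cardiac muscle, was at 7.18 and 6.99 in wild type against 7.09 and 7.05 in the knockout. The knockout values lay between the wild-type values, and the difference was -0.02 ± 0.07, with an interval from -0.21 to 0.18, or a knockout to wild-type ratio between 0.862 and 1.14. Ryr2 had a further kept probe, at 6.85 and 6.82 in wild type against 7.15 and 6.78 in the knockout, where only the first knockout array was high. Ryr1, the skeletal muscle isoform, read 79.1 to 87.6 units and was above background on no array. Ryr3, the third isoform, had 1 probe above background on no array and 1 kept probe with values from 6.11 to 6.25. Among the inositol trisphosphate receptors, which release calcium from internal stores after receptor activation, Itpr3 was at 6.54 and 6.79 in wild type against 6.57 and 6.56 in the knockout, and the high value of the second wild-type array made the difference of -0.10. Itpr2 lay at 5.78 to 5.93 and was above background on 3 of 4 arrays. None of the 4 release channel genes tested had groups without overlap, against 36.8% of all genes.

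**Figure D2:**
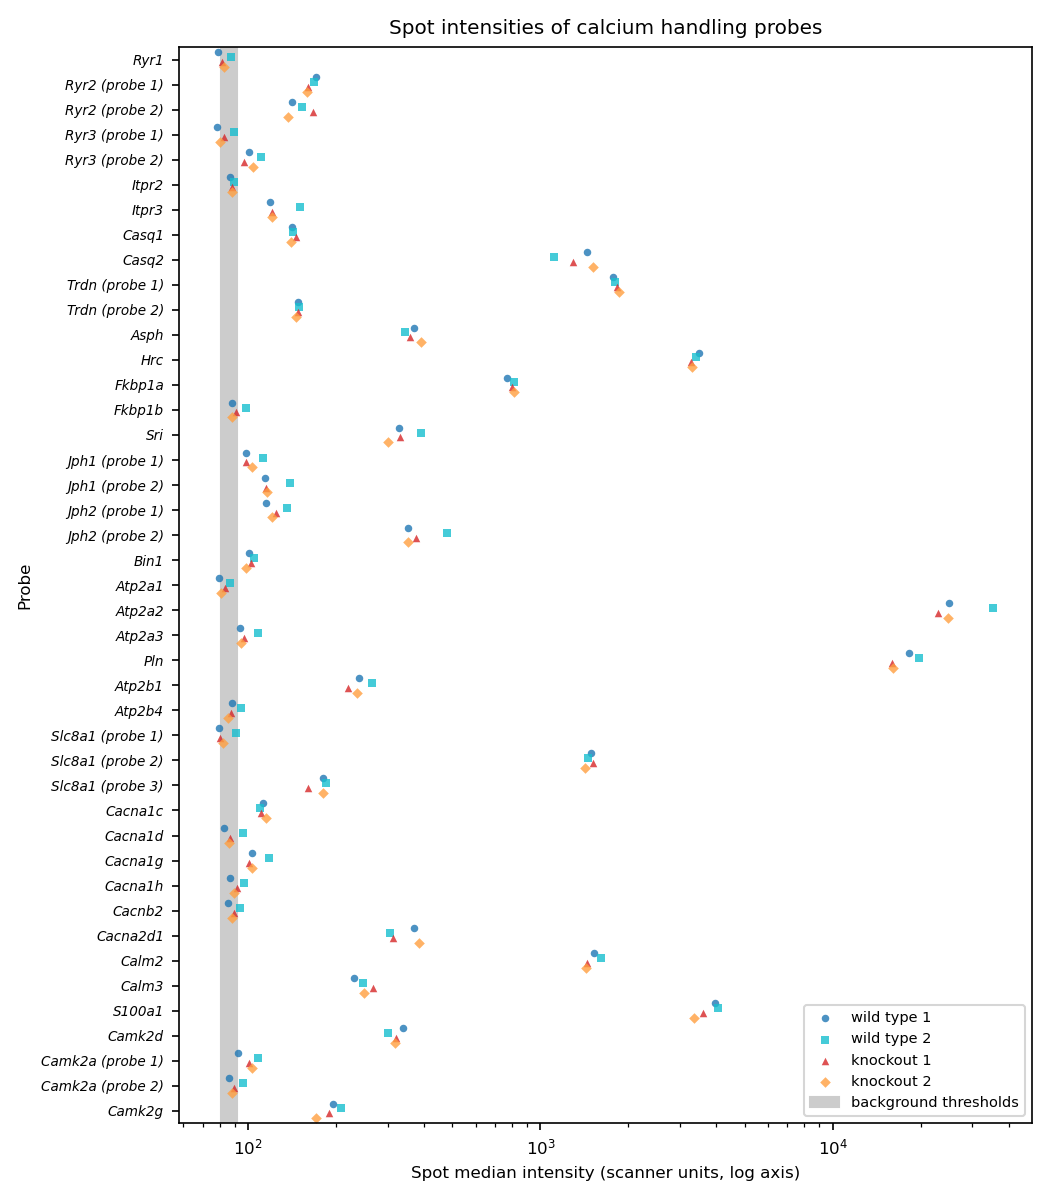
Spot median intensity in scanner units (horizontal log axis) of the 43 probes of calcium handling genes on each of the 4 arrays, with the band of background thresholds of the 4 arrays in grey. Probes of Ryr1 and Atp2a1, 1 probe of Ryr3 and 1 of Slc8a1 are above their array's threshold on no array, and Atp2a2 and Pln lie farthest above it; intensities of different probes are not comparable as transcript levels.

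Proteins of the release complex hold calcium in the store and join the store to the T-tubule. Triadin (Trdn), which anchors calsequestrin to the ryanodine receptor, was at 10.78 and 10.66 in wild type against 10.83 and 10.91 in the knockout. Both knockout values lay above both wild-type values, and the difference was 0.16 ± 0.06, or 1.11-fold, with an unadjusted limma p of 0.0550 and an adjusted p of 0.751. Its other kept probe was at 6.93 and 6.78 and then 6.95 and 6.91, also higher but with overlap. After local background subtraction the Trdn difference turned to -0.52.

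Fkbp1a encodes FKBP12, a small immunophilin that binds ryanodine receptors. It was at 9.56 and 9.49 in wild type against 9.64 and 9.67 in the knockout, without overlap. The difference was 0.13 ± 0.04, or 1.10-fold, with an interval from 0.01 to 0.25, an unadjusted limma p of 0.0353 and an adjusted p of 0.727. After local background subtraction the difference was 2.19. The spot medians before it were 767 and 814 units in wild type and 800 and 814 units in the knockout. The unadjusted p was no longer under 0.05 with an offset of 16, with median scaling, with an intensity trend, in the authors' table, after local background subtraction, with the replicate number as a block, or without either knockout array or the second wild-type array. The related Fkbp1b, which encodes FKBP12.6, lay close to background at 5.91 to 5.98.

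Casq2, cardiac calsequestrin and the main calcium buffer of the store, was at 10.50 and 9.98 in wild type against 10.32 and 10.61 in the knockout. The groups overlapped, because only the second wild-type array was low. The difference was 0.23 ± 0.20, with a wide interval from -0.31 to 0.77, and it was -0.03 without the second wild-type array and 0.49 without the first. Its skeletal muscle relative Casq1 was above background on all 4 arrays, at 6.85 and 6.68 and then 6.92 and 6.83. Asph, whose locus encodes junctin and aspartyl beta-hydroxylase, was at 8.43 and 8.18 in wild type against 8.41 and 8.54 in the knockout, again low on the second wild-type array alone, with a difference of 0.17 ± 0.10. Without that array it was 0.04. The labels and files do not say whether the Asph probe reads the junctin form. The histidine-rich calcium-binding protein Hrc, a store protein, was at 11.79 and 11.62 and then 11.64 and 11.75, with a difference of -0.01 ± 0.08.

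Junctophilins hold the T-tubule and the store membrane together. Jph2, the main form in heart, was at 8.35 and 8.70 in wild type against 8.48 and 8.38 in the knockout, so the second wild-type array was high and the other 3 lay together. The difference was -0.09 ± 0.13 with all arrays and 0.08 without the second wild-type array. Jph1 had the same arrangement, with 6.65 on that array and 6.46 to 6.48 on the other 3. Bin1, which shapes T-tubule membrane, lay at 6.12 to 6.23. Sorcin (Sri), a calcium-binding inhibitor of ryanodine receptors, was at 8.24 and 8.37 and then 8.28 and 8.12. Of the 11 genes of this role 6 were higher and 5 lower, and 3 had groups without overlap, Trdn and Fkbp1a higher and Fkbp1b lower, which is 27.3% against 36.8% of all genes.

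Pumps and exchangers remove calcium from the cytosol. Of the 6 genes tested in this role, which include the pump regulator Pln, 5 were lower and 1 higher in the knockout, where 51.1% of all genes were higher. The groups did not overlap in 3 of the 6, Pln, Atp2b1 and Atp2b4, each lower, which is 50% against 36.8% of all genes. None of the 6 had an unadjusted limma p under 0.05. Atp2a2, the SERCA2 pump of cardiac muscle, stood at 24952 and 35414 units in wild type against 22952 and 24898 units in the knockout, and only the second wild-type array stood apart. Quantile normalization gave it 14.67 and 14.88 in wild type and 14.67 on both knockout arrays. The 3 equal values arose because it was the 10th brightest gene probe on those arrays and the 9th on the other, and quantile normalization gives the same value to the same rank. The difference was -0.10 ± 0.08, with an interval from -0.32 to 0.11. With arrays scaled to a common median, which keeps each array's own spread, the values were 14.60 and 15.06 against 14.51 and 14.63, without equal values but still overlapping. The difference was then -0.26 ± 0.16, with an unadjusted limma p of 0.167 and an adjusted p of 0.798. It was -0.23 with scaling to the 75th percentile, and 0 without the second wild-type array under quantile normalization, where the ranks are equal.

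Phospholamban (Pln), the small membrane protein that inhibits SERCA until it is phosphorylated, was at 14.17 and 14.08 in wild type against 14.00 and 14.05 in the knockout. Both knockout values lay below both wild-type values. The difference was -0.10 ± 0.05, a ratio of 0.933 with an interval from 0.852 to 1.02, an unadjusted limma p of 0.102 and an adjusted p of 0.777. With median scaling the values were 14.15 and 14.22 against 13.98 and 14.00, and the difference was -0.19 ± 0.04, with an unadjusted limma p of 0.00919 and an adjusted p of 0.719. It was -0.16 with scaling to the 75th percentile, -0.47 after local background subtraction, -0.10 in the authors' table and -0.06 to -0.14 when each array was left out. Pln lay lower under each setting tried, by an amount that depended on the scaling and on the background correction.

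Slc8a1, the sodium-calcium exchanger, was at 10.54 and 10.37 in wild type against 10.57 and 10.51 in the knockout, with overlap and a difference of 0.09 ± 0.07. The difference was 0.0016 without the second wild-type array and 0.86 after local background subtraction, where its unadjusted limma p was under 0.05 and its adjusted p was 0.714. Its other kept probe was at 7.27 and 7.15 and then 7.09 and 7.27, and the third of its probes was above background on no array. Of the plasma membrane calcium pumps, Atp2b1 was at 7.74 and 7.76 in wild type against 7.62 and 7.73 in the knockout. It was lower without overlap, by -0.08 ± 0.05, with the first knockout array the lowest. Atp2b4 was dim, at 87.7 and 94.1 units in wild type against 87.2 and 85.1 units in the knockout, or 5.96 and 5.89 against 5.87 and 5.84. Its difference was -0.07 ± 0.04 without overlap, and it was 0.04 after local background subtraction. The offset of 50 shrinks differences of dim probes, and in the authors' table Atp2b4 stood at 9.1 and 5.1 units in wild type and 4.1 and 3.9 units in the knockout, a ratio of 0.563. It was the 1 member with an unadjusted limma p under 0.05 in that table. Atp2a3, the SERCA isoform of non-muscle cells, lay at 6.06 to 6.16. The fast skeletal pump Atp2a1 was above background on no array.

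**Figure D3:**
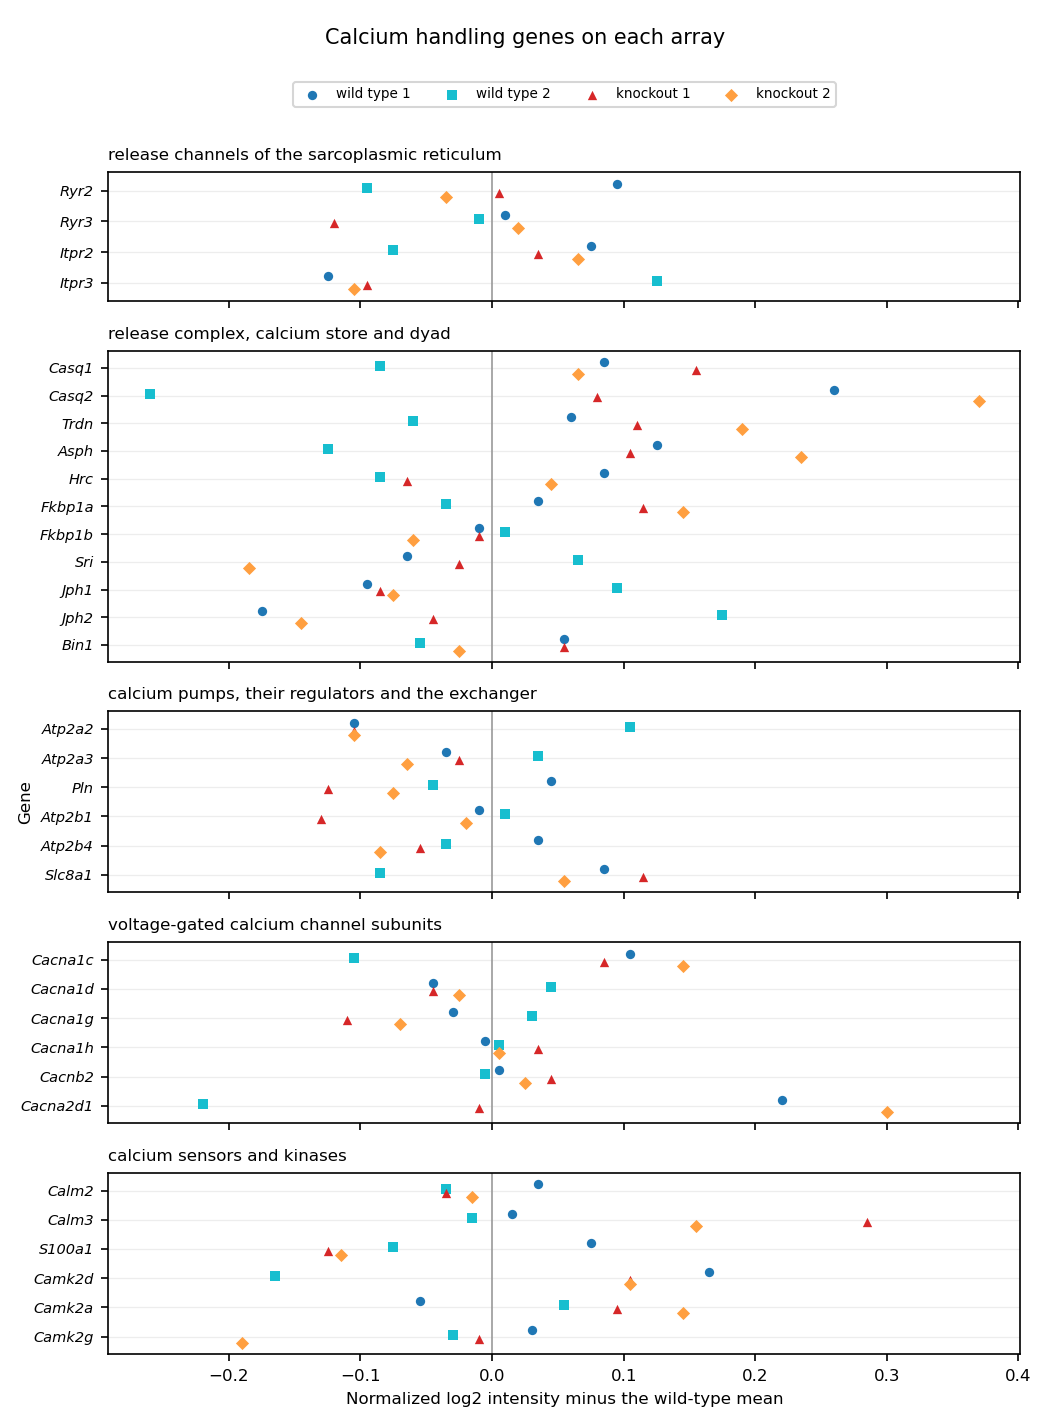
Normalized log2 intensity of each of the 33 genes on each of the 4 arrays, minus the mean of the 2 wild-type arrays (horizontal axis), grouped by role, with 1 symbol per array. The second wild-type array (squares) lies apart from the other 3 in Casq2, Asph, Jph1, Jph2, Atp2a2, Cacna1c, Cacna2d1 and Camk2d, and both knockout arrays lie above both wild-type arrays in Trdn, Fkbp1a, Cacnb2, Calm3 and Camk2a and below both in Fkbp1b, Pln, Atp2b1, Atp2b4, Cacna1g and S100a1.

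Voltage-gated calcium channels start the release. The pore subunit of the L-type channel, Cacna1c, was at 6.42 and 6.21 in wild type against 6.40 and 6.46 in the knockout, low on the second wild-type array alone. The difference was 0.12 ± 0.08, with an interval from -0.11 to 0.34, and it was 0.01 without that array and -0.50 after local background subtraction. Cacna2d1, an accessory subunit that brings the channel to the membrane, had the widest spread of these subunits, at 8.43 and 7.99 in wild type against 8.20 and 8.51 in the knockout. Its difference of 0.14 ± 0.19 turned to -0.08 without the second wild-type array. Cacnb2, the main cardiac beta subunit, was close to background at 85.0 to 94.0 units, with log2 values of 5.89 and 5.88 and then 5.93 and 5.91. Its knockout values lay above both wild-type values by 0.03, which is within its standard error of 0.04. The T-type channel gene Cacna1g was at 6.28 and 6.34 in wild type against 6.20 and 6.24 in the knockout, lower without overlap, with a difference of -0.09 ± 0.04 and an unadjusted limma p of 0.107. Cacna1h, another T-type gene, and Cacna1d, the L-type gene of pacemaker cells, lay at 5.93 to 5.97 and 5.84 to 5.93, both near background. Of the 6 subunits 4 were higher and 2 lower, and 0 had an unadjusted limma p under 0.05. The groups did not overlap in 2 of them, Cacnb2 and Cacna1g, which is 33.3% against 36.8% of all genes.

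Calcium sensors and kinases read the signal. Calmodulin is made from several genes with the same protein product, and Calm2 and Calm3 were members. Calm3 was at 7.68 and 7.65 in wild type against 7.95 and 7.82 in the knockout, higher on both knockout arrays by more than either group's spread. The difference was 0.22 ± 0.06, or 1.17-fold, with an interval from 0.07 to 0.37. Its unadjusted limma p of 0.0137 was the smallest of the members and its adjusted p was 0.727. It stayed higher under each alternative tried, and its unadjusted p was over 0.05 after local background subtraction, in the authors' table and without the first knockout array. Calm2 was at 10.57 and 10.50 and then 10.50 and 10.52, with a difference of -0.02 ± 0.04 and an interval from -0.14 to 0.10. The difference between Calm2 and Calm3 was not tested, and the labels and files do not say whether the probes separate the calmodulin genes.

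S100a1, a calcium sensor that acts on SERCA and the ryanodine receptor, was at 12.00 and 11.85 in wild type against 11.80 and 11.81 in the knockout. Both knockout values lay below both wild-type values and the difference was -0.12 ± 0.06, with an unadjusted limma p of 0.112 and an adjusted p of 0.777. It was -0.15 with median scaling, with an unadjusted limma p of 0.0332 and an adjusted p of 0.730, and 0.06 after local background subtraction. Of the calcium-calmodulin kinases, Camk2d, the main cardiac form, was at 8.29 and 7.96 in wild type against 8.23 on both knockout arrays. The difference was 0.11 ± 0.12, and -0.06 without the second wild-type array, which alone was low. Camk2a, the form best known from neurons, was at 6.05 and 6.16 and then 6.20 and 6.25, higher without overlap by 0.12 ± 0.05, with an unadjusted limma p of 0.0951. Its other kept probe gave -0.01. Camk2g was at 7.41 and 7.35 and then 7.37 and 7.19, with only the second knockout array low. Of the 6 genes of this role 3 were higher and 3 lower. The groups did not overlap in 3, Calm3 and Camk2a higher and S100a1 lower, which is 50% against 36.8% of all genes.

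Probes of the same gene did not always go the same way. Of 6 members with several kept probes, the probes differed in sign in 4 and shared a sign in 2. The second probe gave 0.13 in place of -0.02 for Ryr2, -0.03 in place of 0.09 for Slc8a1, 0.04 in place of -0.09 for Jph2 and -0.01 in place of 0.12 for Camk2a. For Trdn and Jph1 the probes gave 0.16 and 0.07, and -0.08 and -0.03.

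The spread between the wild-type arrays was larger than the genotype difference in most members, and in a like share of all genes tested. The gap between the wild-type arrays exceeded the absolute genotype difference in 21 of 33 members, or 63.6%, against 61.5% of all genes tested. The gap between the knockout arrays exceeded it in 12 of 33, or 36.4%, against 53.7%. The median gap was 0.120 between the wild-type arrays and 0.047 between the knockout arrays, where the values over all genes were 0.061 and 0.049. The second wild-type array was the one farthest from the median of the other 3 in 18 members, or 54.5%, against 36.3% of all genes. The member counts that follow are out of 33, and the percentages are of all genes in the same fit. Without the first wild-type array, so that the second alone stood for wild type, 13 members had an unadjusted limma p under 0.05, against 14.7% of all genes in that fit. They were 9 higher (Asph, Cacna1c, Calm3, Camk2d, Casq1, Casq2, Fkbp1a, Slc8a1 and Trdn) and 4 lower (Atp2a2, Itpr3, Jph1 and Jph2). Without the second wild-type array there were 3, Calm3 and Camk2a higher and S100a1 lower, against 7.03% of all genes. Without the first knockout array there was 1, against 5.57%, and without the second 1, against 2.78%. Without the first wild-type array the share of members was thus well above that of all genes, and this excess rests on the second wild-type array alone. The share of members was slightly above that of all genes without the second wild-type array, and below it without the first knockout array. As given above, the second wild-type array also had the highest blank median and the smallest share of probes above background. The part of these array measures in the members' differences was not tested.

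**Figure D4:**
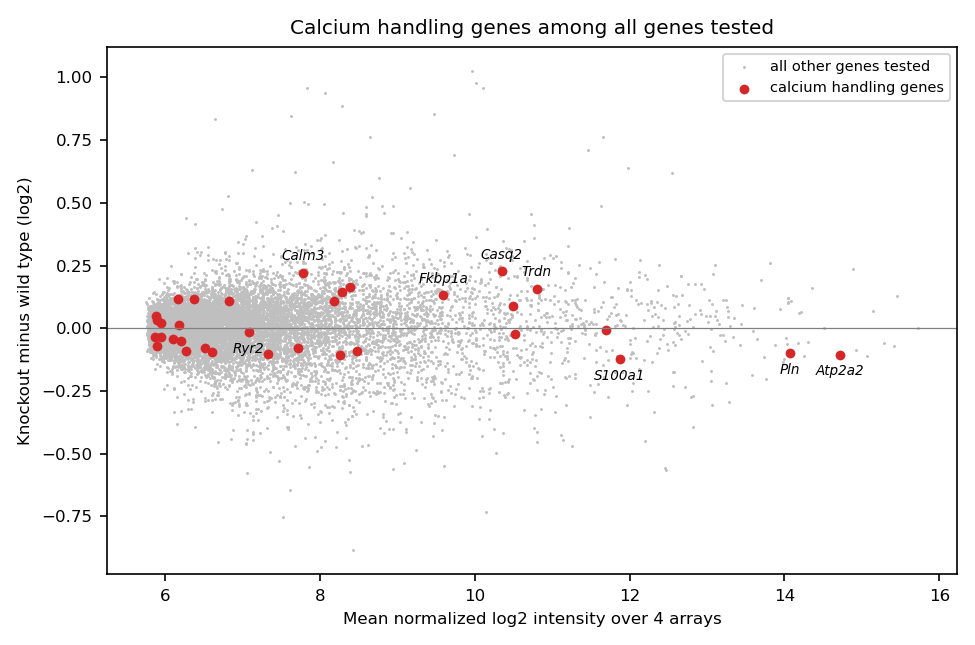
Knockout minus wild-type difference (log2, vertical axis) against the mean normalized log2 intensity over 4 arrays (horizontal axis) for all 15955 genes tested, with the 33 calcium handling genes in red. The members lie within the cloud of other genes at their intensity, with none beyond 0.23 in either direction.

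Other genes of the pathway, from 6 lists with 93 symbols of which 73 could be tested, gave a like share of genes called. Their median absolute difference was 0.047. There were 3 higher and 2 lower at an unadjusted limma p under 0.05, which is 6.85% against 6.74% of all genes, and 0 with an adjusted p under 0.05. In the list of other sarcoplasmic reticulum genes 1 of 15, Pdzrn3, was higher and 0 were lower by that rule. The counts were 1 of 9 and 0 among T-tubule and dyad genes, and 1 of 8 and 1 among mitochondrial calcium uptake genes. Among sensors, kinases, phosphatases and anchors 0 of 23 were higher and 1 lower, and among 12 other calcium channel genes and 6 other pumps and exchangers there were 0 in each direction. Bves, a popeye domain protein that binds cyclic AMP, was at 8.15 and 8.22 in wild type against 8.38 and 8.48 in the knockout. Its difference was 0.24 ± 0.06, with an unadjusted limma p of 0.00908 and an adjusted p of 0.727. Vdac3, a channel of the outer mitochondrial membrane, was 0.20 ± 0.06, and Letm1, an ion exchanger of the inner membrane, was -0.18 ± 0.07. Camk1, a calmodulin-dependent kinase, was at 8.07 and 8.15 and then 7.96 and 7.74, with a difference of -0.26 ± 0.09. Pdzrn3, a ubiquitin ligase rather than a store protein, was 0.29 ± 0.08, and Tmem43, a membrane protein of the nuclear envelope, was 0.13 ± 0.06 with an unadjusted limma p of 0.0722. Each of these 6 genes had an adjusted p of 0.727 to 0.756.

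The regions before the start sites of Calm3 and Fkbp1a are shown because these were the 2 members with an unadjusted limma p under 0.05, and the arrays did not measure promoter activity. The sequences are the 250 bases before the RefSeq start in build GRCm38.p6, at chr7:16924033-16924282 on the minus strand for Calm3 and chr2:151542233-151542482 on the plus strand for Fkbp1a, written 5′ to 3′ along the gene. Capitals mark GGAAA, the core bound by NFAT factors, on either strand.
Calm3: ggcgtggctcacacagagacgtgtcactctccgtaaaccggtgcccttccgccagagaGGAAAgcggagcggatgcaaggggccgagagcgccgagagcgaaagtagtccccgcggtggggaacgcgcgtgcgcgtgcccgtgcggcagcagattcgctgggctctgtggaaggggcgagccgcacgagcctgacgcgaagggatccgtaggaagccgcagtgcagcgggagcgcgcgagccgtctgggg
Fkbp1a: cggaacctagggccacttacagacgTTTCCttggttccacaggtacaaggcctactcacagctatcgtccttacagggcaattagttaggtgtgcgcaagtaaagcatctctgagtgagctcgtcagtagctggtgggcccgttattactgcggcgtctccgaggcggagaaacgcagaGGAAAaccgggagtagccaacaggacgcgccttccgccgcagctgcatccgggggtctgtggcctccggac
The core stood at 1 place in Calm3 and at 2 places in Fkbp1a, and 55.6% of the 32851 windows of this length in the promoter table hold it at least at 1 place. Neither window held TATAAA, present in 12.4% of windows, or the cyclic AMP response element TGACGTCA, present in 1.55%, each searched on both strands. G and C made up 69.2% of the Calm3 window and 58.4% of the Fkbp1a window, against a median of 52.4% over all windows. These matches describe letters and are not measured sites.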

How the data were processed

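Total RNA was amplified with amino allyl nucleotides, labelled with Cy5 and read on oligonucleotide arrays of Toray, per the labels' protocols. The deposited scanner files give each spot's median intensity, linear and not normalized, per the file headers. A second table from the authors holds processed intensity values, close to a straight-line rescaling of the spot medians with a median of 25 per array. Its 3714 to 4955 empty entries per array and its values under 2.3 were set to 2.3 where that table was used as an alternative. The platform annotation gave a symbol to 20690 of 23473 gene probes.

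Spot medians of all 27456 spots were corrected with normexp (offset 50) in limma 3.58.1 under R 4.3.3, without local background, and gene probes were quantile normalized on the log2 scale. In the alternative with local background subtracted, spots at or below their local background were set to a small positive floor before the log2 step. Of the kept probes, 16999 had a symbol, and the brightest probe stood for its gene. Groups were compared with lmFit and eBayes without covariates (2 residual and 2.49 prior degrees of freedom), two-sided, with Benjamini-Hochberg adjustment over 15955 genes and a threshold of 0.05. The number of arrays limits the precision.

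The members and lists were chosen with earlier results of these data known. Intensities are given for Trpc6, and differences for 8 core members, the 8 others with the smallest p and 6 further pathway genes; those of other members are given where arrays, probes or settings are compared, chosen after their values were seen.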

Additional observations from a re-analysis of the deposited data

How the results depend on the processing

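No member passed an adjusted p of 0.05 in limma under any of the 14 alternatives. Over all genes 0 passed, except 1 after local background subtraction and 1 without the second wild-type array. The members higher and lower at an unadjusted p under 0.05, 2 and 0, were 1 and 0 with an offset of 16 or an intensity trend (6.58% and 6.22% of all genes in those fits, in either direction), 4 and 0 after local background subtraction (6.82%), 1 and 2 with median scaling (6.73%), 4 and 1 with 75th percentile scaling (7.1%), and 0 and 1 in the authors' table (4.26%). When each array was left out they ranged from 0 to 9 and from 0 to 4, genes higher from 250 to 1143, genes lower from 194 to 1201, genes with an adjusted p under 0.05 from 0 to 1, and the members' median from -0.026 to 0.014. That median was 0.038 after local background subtraction, 0.013 with 75th percentile scaling and 0.017 in the authors' table, where 217 genes were higher and 462 lower in place of 585 and 491; the split was 397 and 676 with median scaling and 718 and 415 with 75th percentile scaling.

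13 members kept their sign under each alternative. After local background subtraction the sign turned in 11, with values of 0.13 for Ryr3, 1.1 for Itpr3, -0.52 for Trdn, 0.51 for Fkbp1b, 0.12 for Sri, 0.01 for Jph2, -0.02 for Bin1, 0.04 for Atp2b4, -0.50 for Cacna1c, 0.06 for S100a1 and -0.76 for Camk2d. It turned for Hrc, Fkbp1b and Cacna1d with 75th percentile scaling, at 0.01, 0.01 and 0.02, for Hrc and Calm2 in the authors' table, at 0.07 and 0.02, and for Ryr2 with the mean of its probes, at 0.06. Leaving out each array gave ranges that crossed 0 for Ryr2 (-0.11 to 0.08), Ryr3 (-0.12 to 0.02), Itpr2 (-0.03 to 0.12), Itpr3 (-0.22 to 0.03), Casq2 (-0.03 to 0.49), Hrc (-0.09 to 0.07), Jph1 (-0.17 to 0.02), Jph2 (-0.26 to 0.08), Bin1 (-0.05 to 0.07), Cacna1d (-0.08 to 0.01), Cacna2d1 (-0.08 to 0.37), Calm2 (-0.06 to 0.01) and Camk2d (-0.06 to 0.27). Differences that kept their sign grew after local background subtraction to 1.96 for Itpr2, 2.19 for Fkbp1a, 0.95 for Asph, 0.86 for Slc8a1 and -0.81 for Atp2b1, among others. The causes were not tested. The lone array of a group is then assumed to vary like the others.

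The replicate numbers did not mark shared animals or days in the labels, and deviations of same-numbered arrays correlated at 0.0967 across 15955 genes. With the replicate number as a block, 1 of 33 members was higher and 0 were lower at an unadjusted limma p under 0.05, against 7.2% of all genes. Signal over background limits 8 of the 33 members, whose mean intensity was under 1.2 times the background threshold.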
